A study of Rattus norvegicus with 68 samples.

Results

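S100a8 and S100a9 encode the subunits of calprotectin, and their transcripts were followed in the blood of rats given acetaminophen, a pain reliever that injures the liver at high doses. These 2 genes, each read by 1 probe, were taken from 9653 genes with named probes on a dual-colour oligonucleotide array. They were selected because of the ratios they showed in these same rats, so their own ratios are described below and carry no test.

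Male F344/N rats, 10 to 12 weeks old, received 150, 1500 or 2500 mg/kg acetaminophen by gavage, split over 2 doses, in 0.5% ethyl cellulose, and blood was taken at 6, 12 or 24 h. The 9 groups of dose and time held 34 rats, 4 per group except for 3 after 150 and 3 after 1500 mg/kg at 12 h, where RNA quality was too low in the missing animals. Every rat was hybridised against vehicle RNA of its own time, on 2 arrays with opposite dyes, 68 in all. By the design text that vehicle RNA was a pool of 4 animals at 6 and at 12 h and of 6 animals at 24 h, whereas 6 and 12 h arrays are labelled with just the number of an individual rat as the control. Because the same vehicle RNA serves all doses of a time, a level peculiar to that RNA would move all 3 dose groups of the time together, and it cancels when doses of a time are compared.

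Calprotectin is a calcium-binding complex stored in large amounts in the cytosol of neutrophils and, at lower levels, of monocytes. Released from these cells, it binds zinc and manganese and so withholds them from microbes, and it acts on Toll-like receptor 4 and on RAGE, the receptor encoded by Ager, as an alarm signal. In mice, loss of S100a9 also removes the S100a8 protein from neutrophils, and the genes are active together as myeloid cells mature. Calprotectin in blood is widely used as a readout of neutrophil activity.

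In the GRCr8 annotation of the rat genome the genes lie on chromosome 2 with 0 annotated genes between them, S100a7a on the outer side of one and Pglyrp4 on that of the other. S100a3, S100a4, S100a5 and S100a6 belong to the same cluster. RefSeq promoter sequence on GRCr8 matched S100a9 and did not match S100a8. The S100a9 window, chr2:178490573-178490872 on the minus strand, runs from 250 bases before to 50 bases after the annotated start. It is shown alone because S100a8 had no matching sequence. By the mean of its arrays, every rat of 1500 mg/kg was above vehicle for both genes at all 3 times. For S100a8 at 12 h the arrays of rat 4134 disagreed in sign. Capitals in the window mark the TATAAA motif, whose first base lies at -42 from the start.

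S100a9 promoter: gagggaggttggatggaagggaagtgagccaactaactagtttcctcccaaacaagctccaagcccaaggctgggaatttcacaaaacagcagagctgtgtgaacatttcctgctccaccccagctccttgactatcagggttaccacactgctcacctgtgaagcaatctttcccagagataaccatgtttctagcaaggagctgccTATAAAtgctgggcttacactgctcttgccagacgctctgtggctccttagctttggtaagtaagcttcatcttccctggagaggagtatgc

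TATAAA on either strand occurred in 14.2% of 33469 rat promoter windows of that length. The other motifs searched on both strands did not occur in the S100a9 window. They were TTNNGCAA for C/EBP factors (in 10.6% of all windows), TTCNNNGAA for STAT factors (8.87%), AGGAAGT for PU.1 (8.41%), TGANTCA for AP-1 (7.33%) and AGAACA for the glucocorticoid receptor (20.7%). A window without these letters says nothing about binding of the factors.

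The deposited values were log10 ratios without intensities, given here as log2 treated over vehicle, so that 1 unit is a doubling. They do not show how strongly a gene was expressed, and the identity of the tissue as blood could not be checked by the level of its markers. The direction was taken as Cy5 over Cy3, which is likely but not stated, and the opposite reading would turn every sign below. One array stood apart, that of rat 3631 (2500 mg/kg, 24 h) with the treated RNA in Cy5. Its correlation with the mean of the other arrays over named probes was -0.24, against 0.36 for the next lowest array. These correlations used Cy5 over Cy3 ratios not turned by dye, so they follow the dye pattern that arrays share and not the treatment. Before turning, the arrays of a rat correlated positively in 28 of 34 rats. Once turned to treated over vehicle, their median correlation was -0.45, so a dye pattern ran through most arrays. Results that rest on the array of rat 3631 are given with and without it.

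At 24 h both transcripts were far above vehicle after 1500 and after 2500 mg/kg and close to it after 150 mg/kg. For S100a8 the 1500 mg/kg rats read 1.43, 2.81, 3.31 and 3.84, which gave 2.85 ± 1.03 (SD, n = 4), or 7.20-fold. For S100a9 they read 2.17, 3.55, 3.68 and 4.13, which gave 3.38 ± 0.85 (SD, n = 4), or 10.4-fold. Rat 3624 was the lowest of the 4 for both subunits and rat 3625 the highest. More cells carrying a transcript and more transcript per cell cannot be told apart in whole blood RNA.

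In the 2500 mg/kg rats at 24 h S100a8 read 1.67, 2.93, 3.20 and 3.79, a mean of 2.90 ± 0.89 (SD, n = 4). S100a9 read 0.99, 3.66, 3.70 and 3.98, a mean of 3.08 ± 1.40 (SD, n = 4). The lowest value of each belongs to rat 3631, and it came from the array that stood apart. With the treated RNA in Cy3, that rat read 3.66 for S100a8 and 4.0 for S100a9, among the values of the other 3 rats or just above them. With the treated RNA in Cy5 it read -0.31 for S100a8 and -2.02 for S100a9. Without that array the group means were 3.39 ± 0.40 for S100a8 and 3.84 ± 0.18 for S100a9 (SD, n = 4), or 10.5-fold and 14.3-fold.

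After 150 mg/kg at 24 h S100a8 read -1.09, -0.68, -0.43 and 0.14, a mean of -0.52 ± 0.52 (SD, n = 4). S100a9 read -0.57, -0.34, 0.14 and 0.16, a mean of -0.15 ± 0.36 (SD, n = 4). Every rat of both higher doses lay above every 150 mg/kg rat for both genes, and this held for rat 3631 too. The genes were selected by these ratios, and the share of all genes with rats apart likewise was not counted, here or at 6 h. The difference from 150 mg/kg, in which the vehicle RNA cancels, was 3.36 ± 0.58 (SE) for S100a8 at 1500 mg/kg and 3.41 ± 0.52 at 2500 mg/kg. For S100a9 it was 3.54 ± 0.46 and 3.24 ± 0.72. Without the Cy5-treated array of rat 3631, the 2500 mg/kg differences from 150 mg/kg were 3.91 ± 0.33 for S100a8 and 3.99 ± 0.20 for S100a9 (SE). Raising the dose from 1500 to 2500 mg/kg moved S100a8 by 0.048 ± 0.68 (SE) and S100a9 by -0.30 ± 0.82, and the rats of both doses overlapped. When the Cy5-treated array of rat 3631 was left out, the S100a9 difference turned to 0.45 ± 0.43 and that of S100a8 was 0.54 ± 0.55 (SE), still with overlapping rats.

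**Figure D1:**
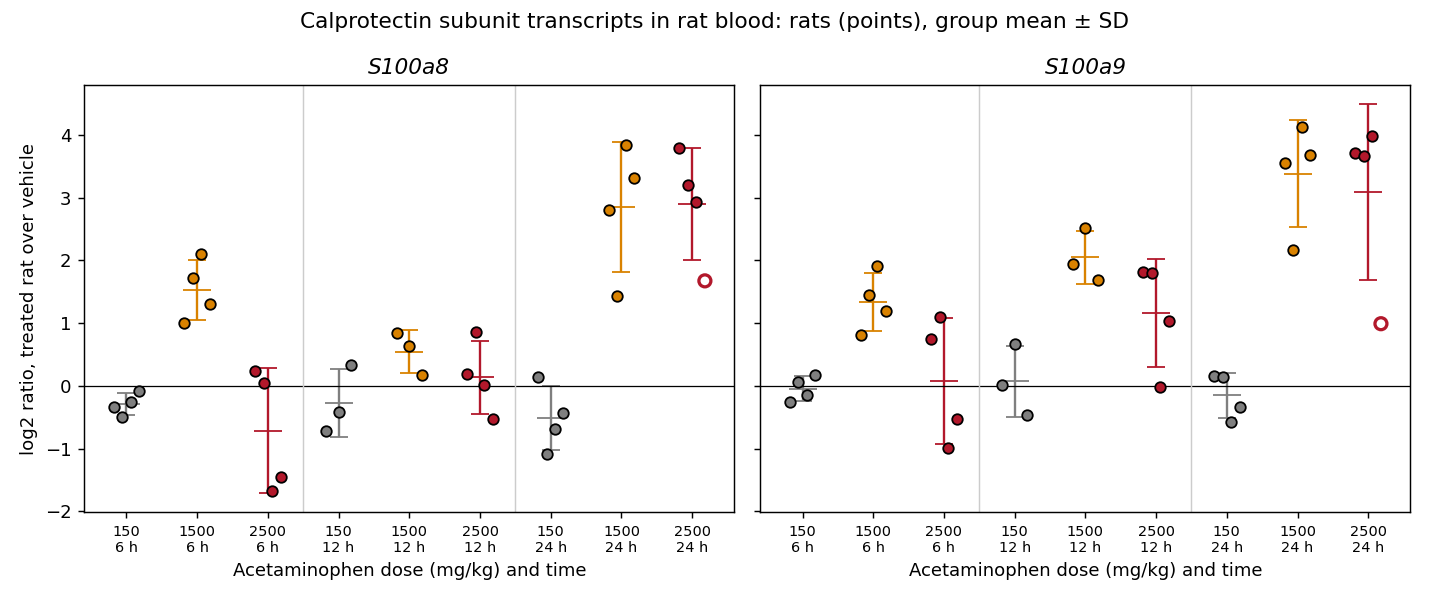
Log2 ratio of S100a8 (left) and S100a9 (right), treated rat over vehicle, in the 9 groups of dose and time. Filled points are rats, the open point is rat 3631, and the bars give the group mean and SD. At 24 h every rat of the 1500 and 2500 mg/kg groups lies above the 4 rats of 150 mg/kg in both panels.

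At 6 h both transcripts were above vehicle in every rat after 1500 mg/kg, and neither was after 150 or 2500 mg/kg. For S100a8 the 1500 mg/kg rats read 1.0, 1.31, 1.72 and 2.10, with a mean of 1.53 ± 0.48 (SD, n = 4), or 2.89-fold. For S100a9 they read 0.80, 1.19, 1.44 and 1.91, with a mean of 1.33 ± 0.46 (SD, n = 4), or 2.52-fold. All 4 rats were above vehicle and above every 150 mg/kg rat for both subunits, and the rats kept the same order for both.

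The 150 mg/kg rats at 6 h stayed near vehicle. S100a8 read -0.50, -0.34, -0.26 and -0.075, with a mean of -0.29 ± 0.18, and S100a9 read -0.26, -0.15, 0.054 and 0.18, with a mean of -0.044 ± 0.19 (SD, n = 4). These small S100a8 ratios depended on the dye, with a mean of 0.062 from the arrays with the treated RNA in Cy5 and -0.65 from those with it in Cy3. Those of S100a9 depended on it in the other sense, -0.29 in Cy5 and 0.20 in Cy3.

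The 2500 mg/kg rats at 6 h fell into a pair near or above vehicle and a pair below it. S100a8 read 0.24 in rat 3595, 0.043 in rat 3596, -1.46 in rat 3598 and -1.68 in rat 3597, a mean of -0.71 ± 0.99 (SD, n = 4). S100a9 read 0.74, 1.10, -0.52 and -1.0 in the same rats, a mean of 0.082 ± 1.0 (SD, n = 4). The pairs held the same rats for both genes. All 4 rats lay below every 1500 mg/kg rat for S100a8, with a difference in means of -2.25 ± 0.55 (SE), whereas for S100a9 the highest of them overlapped the 1500 mg/kg rats. At 24 h the groups of these doses overlapped for both genes, as given above.

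At 12 h S100a9 lay further above vehicle than S100a8 in the 1500 mg/kg rats. S100a9 also exceeded S100a8 in 2 of 3 rats of 150 mg/kg and in 3 of 4 of 2500 mg/kg. All of these ratios share the vehicle RNA of 12 h, whose part in the gap was not tested. S100a9 read 1.69, 1.94 and 2.52 in the 1500 mg/kg rats, a mean of 2.05 ± 0.42 (SD, n = 3), or 4.14-fold. S100a8 read 0.17, 0.84 and 0.63 in the same rats, a mean of 0.54 ± 0.34 (SD, n = 3), or 1.46-fold. All 3 rats were above vehicle for both, and above every 150 mg/kg rat for S100a9 only. The S100a8 arrays of rat 4134 disagreed in sign, 0.62 with the treated RNA in Cy5 and -0.29 with it in Cy3. Those of rat 4132 read 1.49 and 0.19.

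After 2500 mg/kg at 12 h S100a9 read -0.017 in rat 4137, 1.04 in rat 4138, 1.79 in rat 4136 and 1.82 in rat 4135, a mean of 1.16 ± 0.86 (SD, n = 4). S100a8 read 0.0058, -0.53, 0.86 and 0.20 in the same rats, a mean of 0.13 ± 0.58 (SD, n = 4). Rat 4137 was at vehicle level for both subunits, while rat 4138 was above vehicle for S100a9 and below it for S100a8. The S100a8 arrays disagreed in sign in rat 4135, 0.87 with the treated RNA in Cy5 and -0.48 with it in Cy3. They did so in rat 4137 too, at 0.28 and -0.27.

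After 150 mg/kg at 12 h S100a8 read -0.73, -0.41 and 0.33, a mean of -0.27 ± 0.54, and S100a9 read 0.0090, 0.67 and -0.46, a mean of 0.071 ± 0.57 (SD, n = 3), in rats 4127, 4128 and 4130. Rat 4130 had the highest S100a8 ratio and the lowest S100a9 ratio of the 3. Its S100a8 value is the mean of 2 arrays that disagreed, 1.54 with the treated RNA in Cy3 and -0.88 with it in Cy5. Without rat 4130 the S100a8 mean of the group was -0.57 and the S100a9 mean was 0.34 (n = 2).

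Ordered by their means, the 9 groups ran for S100a8 from 2.90 (2500 mg/kg, 24 h) and 2.85 (1500 mg/kg, 24 h) through 1.53 (1500 mg/kg, 6 h), 0.54 (1500 mg/kg, 12 h) and 0.13 (2500 mg/kg, 12 h) down to -0.71 (2500 mg/kg, 6 h). Between them and that last group came the 3 groups of 150 mg/kg, at -0.27, -0.29 and -0.52. Of the 8 steps between neighbours in this order, the ranges of the rats were apart in 1, between 1500 mg/kg at 6 h and 1500 mg/kg at 12 h. For S100a9 the order ran from 3.38 (1500 mg/kg, 24 h) and 3.08 (2500 mg/kg, 24 h) through 2.05 (1500 mg/kg, 12 h), 1.33 (1500 mg/kg, 6 h) and 1.16 (2500 mg/kg, 12 h). The other 4 groups lay between -0.15 and 0.082. All neighbours overlapped in S100a9. With the Cy5-treated array of rat 3631 left out, the 2500 mg/kg group at 24 h came first for S100a9, at 3.84. Its rats, from 3.66 upwards, lay apart from those of 1500 mg/kg at 12 h, whose highest was 2.52. These groups were then no longer neighbours. Between them stood 1500 mg/kg at 24 h, whose rats, from 2.17 to 4.13, overlapped both. The 1500 mg/kg groups thus stood at 1.53, 0.54 and 2.85 over 6, 12 and 24 h for S100a8 and at 1.33, 2.05 and 3.38 for S100a9, each set against the vehicle RNA of its own time.

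The difference between the subunits within a rat, S100a9 minus S100a8, is made of the ratios that selected the genes and is described with no test. At 6 h it was below 0 in all 4 rats of 1500 mg/kg, at -0.20 ± 0.063, and above 0 in all 4 rats of 2500 mg/kg, at 0.80 ± 0.25 (SD, n = 4), so the rats of these doses did not overlap. The 150 mg/kg rats lay between these groups or within the higher, with 0.25 ± 0.22 (SD, n = 4). At 12 h it was 1.10, 1.53 and 1.89 in the 1500 mg/kg rats, a mean of 1.50 ± 0.40 (SD, n = 3). In the 2500 mg/kg rats it was 1.03 ± 0.77 (SD, n = 4), and in the 150 mg/kg rats 0.34 ± 1.0 (SD, n = 3), with 0.73 and 1.08 in rats 4127 and 4128 and -0.80 in rat 4130. The 1500 mg/kg rats were barely above the highest 150 mg/kg rat at 12 h, and that time's vehicle RNA is common to all of these values.

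At 24 h the subunit difference was 0.36 ± 0.58 after 150 mg/kg, 0.53 ± 0.24 after 1500 mg/kg and 0.19 ± 0.75 after 2500 mg/kg (SD, n = 4 each). The mean over both higher doses differed from that of 150 mg/kg by -0.0012, and 2500 differed from 1500 mg/kg by -0.35. Leaving out the Cy5-treated array of rat 3631 made these differences 0.13 and -0.090.

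**Figure D2:**
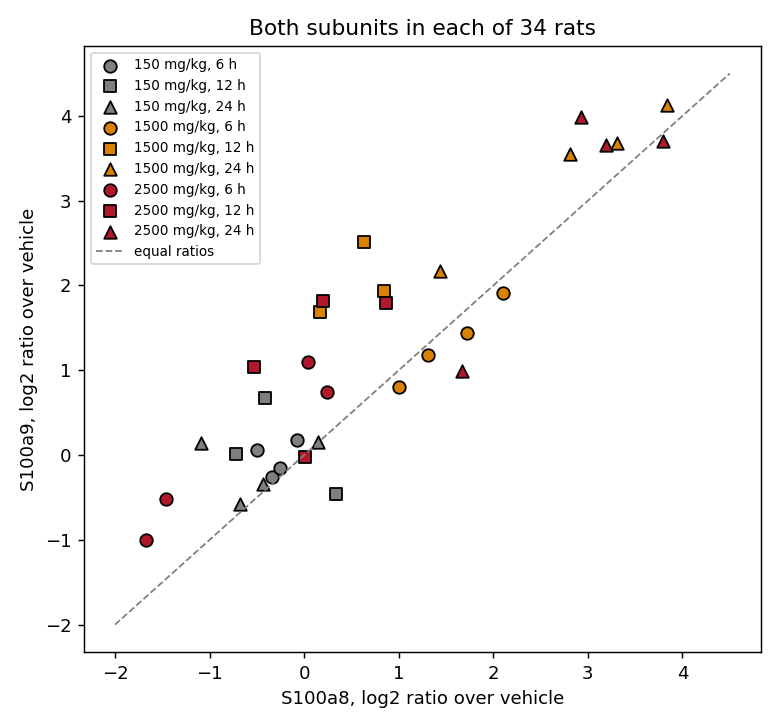
Log2 ratio over vehicle of S100a9 (vertical axis) against S100a8 (horizontal axis), with 1 point for each of 34 rats, coloured by dose and shaped by time. The dashed line marks equal ratios. The 12 h rats of 1500 mg/kg lie above the line by 1.10 to 1.89, and the 6 h rats of 1500 mg/kg lie just below it.

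Over the 34 rats, S100a8 and S100a9 had a Pearson r of 0.902 (Spearman rho 0.848), and r was 0.742 after the mean of each group was taken off. Without rat 3631 the latter was 0.681. By time, r was 0.941 at 6 h, 0.574 at 12 h and 0.960 at 24 h. These are descriptions, since the rats of a time share a vehicle RNA and both values of a rat come from the same arrays.

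The dye orientation bore differently on the probes. The Cy5-treated array read lower than the Cy3-treated array for S100a9 in 32 of 34 rats, by 0.63 on average, whereas for S100a8 it read higher in 22 of 34 rats. The median gap between the arrays of a rat was 0.43 for S100a8 and 0.52 for S100a9. Rat 3631 had the widest gap for both genes, 3.97 and 6.02. The next widest were 2.42 for S100a8 in rat 4130 and 1.09 for S100a9 in rat 4133. None of the 136 array values of the members was an exact zero or at the limit of the deposited scale (0 of 136).

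**Figure D3:**
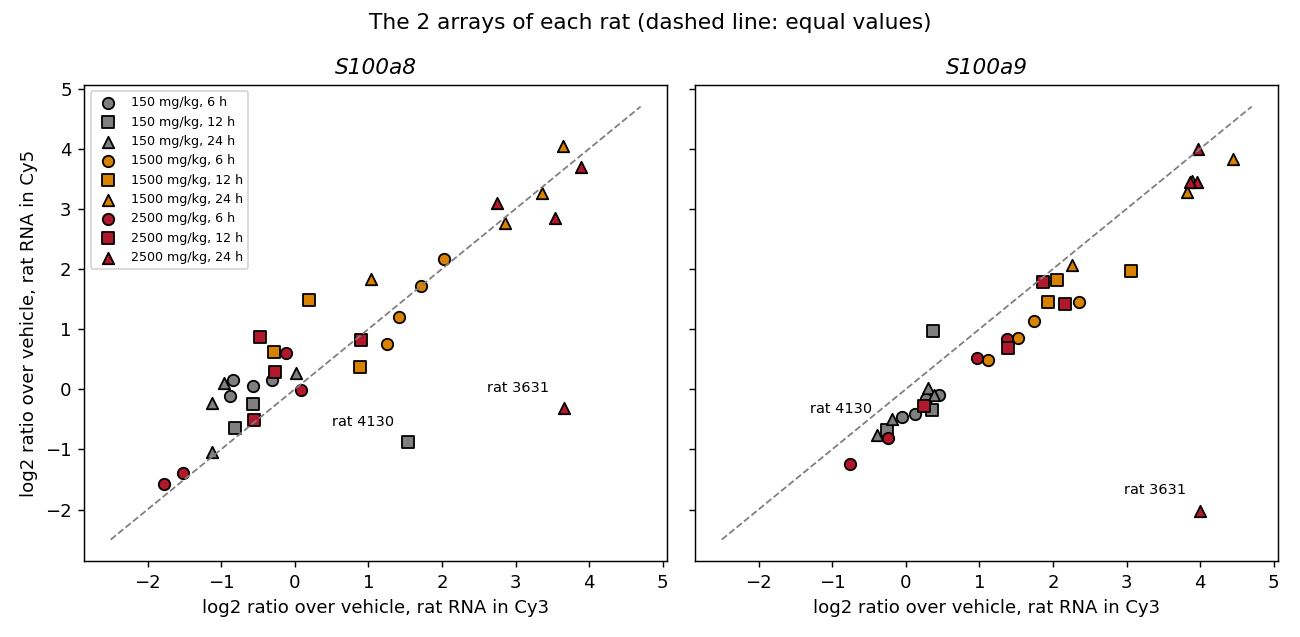
Log2 ratio over vehicle of S100a8 (left) and S100a9 (right) on the array with the rat's RNA in Cy5 (vertical axis) against that with it in Cy3 (horizontal axis), 1 point per rat. Points on the dashed line read the same in both dyes. Rat 3631 lies far below the line in both panels, rat 4130 does so for S100a8, and 32 of the 34 rats lie below it for S100a9.

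Among the other 9649 genes compared, those whose ratios most resembled the mean of both subunits over the 34 rats were Tlr2 (Pearson r 0.938), Anxa1 (0.928), Tf (0.926), Mmp8 (0.919), Slpi (0.916), Dgat2 (0.910), Pglyrp1 (0.905) and Tspo (0.902). Tlr2 encodes a Toll-like receptor for bacterial lipoproteins, Anxa1 the annexin that restrains neutrophil migration, Mmp8 neutrophil collagenase, Slpi an inhibitor of neutrophil elastase, and Pglyrp1 a peptidoglycan recognition protein of neutrophil granules. Tf encodes the iron carrier transferrin, Dgat2 an acyltransferase of triglyceride synthesis and Tspo a protein of the outer mitochondrial membrane. The same 8 genes led without rat 3631. After group means were taken off, the closest were Tlr2 (0.879), Mefv (0.854), Cebpd (0.844) and St3gal4 (0.837). Without rat 3631, on whose Cy5-treated array Mefv read -6.64, these genes ranked 2, 21, 10 and 4 within groups. Mefv encodes pyrin, an inflammasome protein, and Cebpd a C/EBP transcription factor induced in inflammation. The lowest values belonged to Slc16a10 (-0.803), an aromatic amino acid transporter, Cat (-0.781), which encodes catalase, Kpna1 (-0.780), an importin, and Cmas (-0.771), which activates sialic acid.

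These patterns were not uniform over time. Tlr2, like both subunits, had a mean above 0 after 1500 mg/kg at 6, 12 and 24 h, with 0.93 ± 0.25 (SD, n = 4), 1.10 ± 0.19 (SD, n = 3) and 1.71 ± 0.86 (SD, n = 4). Mmp8 read 0.32 ± 0.14, 0.53 ± 0.22 and 1.97 ± 0.76 in these groups, so most of its ratio came at 24 h. Tf read 0.50 ± 0.19, 0.95 ± 0.32 and 2.45 ± 0.91. The array of rat 3631 that stood apart also read the resembling genes differently from its dye partner, with -1.16 against 2.12 for Tlr2, -0.85 against 2.80 for Anxa1 and -1.16 against 2.18 for Mmp8. It did not do so for Kpna1, at -1.58 against -2.08, or for Cmas, at -1.59 against -2.0. Cat read -1.70 against -1.05, while Slc16a10 turned sign, with 0.13 against -0.81. Its part in the likeness of these genes was measured by leaving out the rat, which kept r of Tlr2 at 0.939 and of Mmp8 at 0.920.

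The remaining genes of the pathway were taken from 8 lists with 94 measured genes. They were grouped by function, with earlier results of these data known, and tested with limma over all 9653 genes. The threshold was a Benjamini-Hochberg adjusted p under 0.05. Because of that prior knowledge, the calls and shares below describe these lists and are no independent evidence. At 24 h after 1500 mg/kg 22 of the 94 were called higher and 4 lower than vehicle, 23.4% and 4.26%, where 2.34% and 5.74% of all genes were. After 2500 mg/kg 28 were called higher and 11 lower, 29.8% and 11.7%, where 10.9% and 15.6% of all genes were. The median log2 ratio of the 94 genes was 0.072 and 0.027, close to the 0.0079 and -0.0024 of all genes, so the calls came from a minority of the list. Against 150 mg/kg at 24 h, 11 were higher and 1 lower after 1500 mg/kg (0.632% and 1.51% of all genes), and 13 were higher and 3 lower after 2500 mg/kg (2.56% and 5.09% of all genes).

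At the earlier times fewer of the 94 genes were called. At 6 h after 1500 mg/kg 7 were higher and 9 lower (3.48% and 9.24% of all genes), and after 2500 mg/kg 4 were higher and 10 lower (2.54% and 5.18%). At 12 h after 1500 mg/kg, where S100a9 was high and S100a8 was not, 12 were higher and 3 lower (1.48% and 3.36%), and after 2500 mg/kg 0 were called in either direction (0.0932% and 1.29%). The 12 h calls at 1500 mg/kg fell to 0 when the spread of the vehicle pool was allowed for. After 150 mg/kg 1 was higher and 2 lower at 6 h (1.07% and 0.932%), 0 higher and 1 lower at 12 h (0.963% and 0.922%), and 0 were called at 24 h, when no gene at all passed (0% and 0%, with 166 higher and 150 lower at an unadjusted p under 0.05).

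Of the neutrophil granule proteins, 13 of 26 listed were measured, and 8 rose and 2 fell after 2500 mg/kg at 24 h, while 6 rose and 0 fell after 1500 mg/kg. Of all genes 10.9% rose and 15.6% fell after 2500 mg/kg, and 2.34% and 5.74% after 1500 mg/kg. The median of the list was 0.51 and 0.55. Serpinb1a, an inhibitor of neutrophil serine proteases, rose by 3.37 ± 0.35 (SE, limma adjusted p = 1.47e-07) beside ratios of 2.90 and 3.08 for the calprotectin subunits. Mmp8 rose by 1.58 ± 0.21 (adjusted p = 3.35e-06), Slpi by 1.44 ± 0.17 (adjusted p = 5.52e-07) and Pglyrp1 by 1.04 ± 0.15 (adjusted p = 1.68e-05), in all 4 rats each. Fcnb, a ficolin, fell by 0.44 ± 0.14 after 2500 mg/kg and rose by 0.45 after 1500 mg/kg. The fall did not pass without rat 3628 or rat 3631, nor the rise without rat 3625 or rat 3626. Cst7, a cystatin, had a mean of -0.78 ± 0.27 that rested on rat 3630, the sole animal of 4 below 0, and was 0.029 without it. Without the Cy5-treated array of rat 3631, 9 of the list were called higher and 0 lower.

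Of the neutrophil surface receptors and adhesion proteins, 11 of 21 were measured, and 7 rose and 0 fell after 2500 mg/kg at 24 h, 5 and 0 after 1500 mg/kg. The shares of all genes were 10.9% and 15.6% after 2500 mg/kg, and 2.34% and 5.74% after 1500 mg/kg. Anxa1 rose by 2.05 ± 0.24 (SE, limma adjusted p = 7.47e-07) and Il1r2, the decoy receptor of interleukin 1, by 1.97 ± 0.21 (adjusted p = 1.62e-07). Tlr2 rose by 1.39 ± 0.24 (adjusted p = 0.00017) and Ceacam1, an adhesion molecule, by 0.28 ± 0.055 (adjusted p = 0.000545). Il1r2 was called at 6 h as well, at 1.55 after 1500 mg/kg and at 1.03 after 2500 mg/kg, where S100a8 and S100a9 stood at -0.71 and 0.082 on average. Without the Cy5-treated array of rat 3631, 9 of the list were called higher and 0 lower.

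The leukotriene list was led by Alox5, the 5-lipoxygenase that starts leukotriene synthesis, at 1.28 ± 0.14 (SE, limma adjusted p = 2.36e-07), and its partner Alox5ap rose by 0.19 ± 0.037 (adjusted p = 0.000404). Ptgs2, an inducible cyclooxygenase, rose by 0.15 ± 0.049 (adjusted p = 0.024), and Alox15, a lipoxygenase, fell by 0.84 ± 0.20 (adjusted p = 0.00282). Of the 10 genes, all measured, 3 rose and 1 fell after 2500 mg/kg at 24 h (10.9% and 15.6% of all genes). The count was 5 and 2 without the Cy5-treated array of rat 3631, and 1 and 0 with the rats of that time alone. Ptgs2 and Alox15 did not pass without the rat as a whole. Alox5 stood at 0.08 or below in both higher dose groups at 6 h, when both subunits were already at 1.33 or more after 1500 mg/kg.

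Of the rest of the S100 family, 10 of 15 were measured, and after 2500 mg/kg at 24 h 3 rose and 1 fell (10.9% and 15.6% of all genes). S100b rose by 0.54 ± 0.19 (SE, limma adjusted p = 0.032), S100a6 by 0.37 ± 0.13 (adjusted p = 0.0299) and S100a1 by 0.16 ± 0.032 (adjusted p = 0.000571), while S100a4, a protein of motile cells, fell by 0.55 ± 0.16 (adjusted p = 0.0133). Without rat 3631, S100b, S100a6 and S100a4 did not pass, and S100b did not pass without rat 3630 either. S100a10, the annexin A2 partner, stood at -0.66 ± 0.25 (adjusted p = 0.0509). S100a3, S100a7a, S100a11, S100a13 and S100g lay between -0.10 and 0.093 and did not pass. S100a7a, which lies beside the members on chromosome 2, stood at -0.10 and 0.21 in the groups where S100a8 stood at 2.90 and 2.85. S100a8 was selected by its ratios, and no ratio is given here for Pglyrp4 on the other side. At 6 h S100a4 fell by 0.93 after 1500 mg/kg and by 1.10 after 2500 mg/kg, and S100a10 fell by 1.41 and by 1.43.

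Of 17 listed receptors and first signalling proteins of calprotectin, 10 were measured, and after 2500 mg/kg at 24 h 1 rose and 2 fell. Of all genes 10.9% rose and 15.6% fell, so these counts do not set the list apart. Lbp, which hands lipopolysaccharide to CD14, rose by 0.43 ± 0.11 (SE, limma adjusted p = 0.00582), while Ikbkb, a kinase of NF-kB activation, fell by 0.17 ± 0.040 (adjusted p = 0.00301) and Irak2, an adaptor kinase of Toll-like receptors, by 0.19 ± 0.069 (adjusted p = 0.0434). Irak2 did not pass when any of the 4 rats was left out, and Lbp did not without rat 3628. Of 6 measured NADPH oxidase genes, the oxidase to which calprotectin delivers arachidonate, Rac2 fell by 0.53 ± 0.16 (adjusted p = 0.0181) and 0 rose. That 1 fall among 6 genes is near the share of all genes too. Without the Cy5-treated array of rat 3631 2 rose and 0 fell. Rac2 did not pass without rat 3630 or rat 3631.

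Among 23 measured genes of inducing cytokines, their receptors and transcription factors, 4 rose and 2 fell after 2500 mg/kg at 24 h, 3 and 1 after 1500 mg/kg. Of all genes 10.9% and 15.6% did so after 2500 mg/kg, and 2.34% and 5.74% after 1500 mg/kg. Without rat 3630 the count after 2500 mg/kg was 2 and 2, and after 1500 mg/kg it was 1 and 1 without rat 3623 and 1 and 0 without rat 3624. Cebpd rose by 1.06 ± 0.29 (SE, limma adjusted p = 0.0271) at 12 h after 1500 mg/kg and by 1.21 and 0.65 at 24 h after 1500 and 2500 mg/kg. The 12 h call did not pass with the vehicle's spread allowed for, when 0 of the 94 pathway genes were called. Without rat 4133 just 1 of the 94 was called in that group. Il10, an anti-inflammatory cytokine, rose by 0.20 ± 0.035 (adjusted p = 0.000176) and Myc by 0.30 ± 0.085 (adjusted p = 0.0111), whereas Klf4, a factor of monocyte maturation, fell by 0.21 ± 0.052 (adjusted p = 0.0043) and Gfi1, a repressor needed for neutrophil maturation, by 0.25 ± 0.079 (adjusted p = 0.0225), all after 2500 mg/kg at 24 h. Cebpd after 2500 mg/kg did not pass without rat 3628, 3629 or 3630, and Myc and Gfi1 did not without rat 3631. Il1b, chosen after its values were seen and so described with no test, stood at 1.11 at 12 h after 1500 mg/kg. At 24 h, when the subunits were highest, it stood at 0.14 and -0.026.

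Of 11 measured genes of a list on the handling of zinc, manganese and calcium, which calprotectin binds, and also of iron and heme, 2 rose and 2 fell after 2500 mg/kg at 24 h. These counts are near the shares of all genes, 10.9% and 15.6%. Mt2A, a metallothionein, rose by 0.35 ± 0.074 (SE, limma adjusted p = 0.00104) and Hmox1, heme oxygenase, by 0.11 ± 0.036 (adjusted p = 0.02), and Calr, the calcium store protein calreticulin, fell by 0.21 ± 0.058 (adjusted p = 0.0108) and Ftl1, ferritin light chain, by 0.40 ± 0.15 (adjusted p = 0.0432). Without the Cy5-treated array of rat 3631 the counts were 2 and 0. Without rat 3631 Hmox1, Calr and Ftl1 did not pass, and Hmox1 did not without rat 3628.

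**Figure D4:**
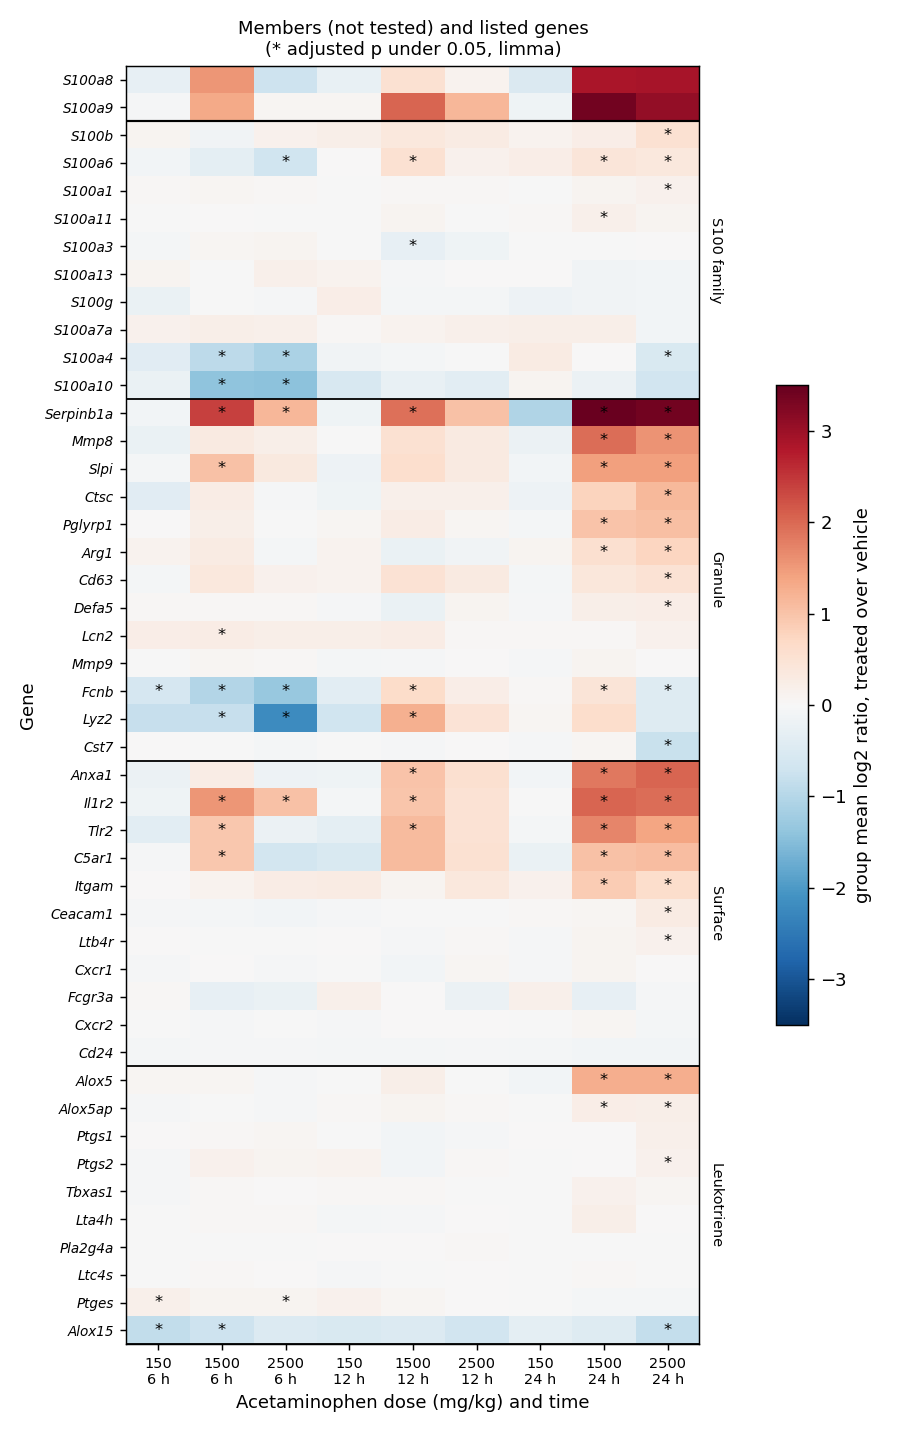
Group mean log2 ratio, treated over vehicle, of both calprotectin subunits (top rows, not tested) and of the measured genes of 4 lists, in the 9 groups of dose and time. Red is higher than vehicle and blue lower, and an asterisk marks a limma adjusted p under 0.05. Serpinb1a, at 3.37 after 2500 mg/kg at 24 h, is the listed gene closest to the subunits in size.

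The lists of cell type markers are set beside the subunits as follows. At 24 h 10.9% of all genes were called higher and 15.6% lower after 2500 mg/kg, and 2.34% and 5.74% after 1500 mg/kg. Of 5 measured neutrophil markers, Mmp8 and Itgam rose at 24 h after both higher doses, Itgam by 0.62 ± 0.13 (SE, limma adjusted p = 0.000878) after 2500 mg/kg. Cxcr2 stood at 0.064 and -0.066, Mmp9 at 0.086 and 0.022 and Lcn2 at 0.038 and 0.16 after 1500 and 2500 mg/kg and did not pass. Without the Cy5-treated array of rat 3631, 4 of the 5 passed upwards after 2500 mg/kg. Of 10 monocyte and macrophage markers 1 rose and 2 fell after 2500 mg/kg, counts near the shares of all genes. Csf1r went up by 0.38 ± 0.096, and Clec4a3 (-1.70 ± 0.22) and Cx3cr1 (-0.16 ± 0.058) went down. Csf1r and Cx3cr1 did not pass without rat 3631.

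Of 14 T cell markers 0 rose and 10 fell after 2500 mg/kg at 24 h, and 9 fell after 1500 mg/kg, with list medians of -0.60 and -0.54. Of all genes 10.9% rose and 15.6% fell in the first of these groups, and 2.34% and 5.74% in the second. The count after 1500 mg/kg was 2 without rat 3623, 5 without rat 3624, 5 with the rats of that time alone and 4 with the vehicle's spread allowed for. Cd5 fell by 1.35 ± 0.28 and Cd6 by 1.07 ± 0.17 (SE, limma adjusted p = 0.000819 and 4.77e-05). T cell markers were already lower at 6 h, with 7 of 14 after 1500 mg/kg and 5 of 14 after 2500 mg/kg (9.24% and 5.18% of all genes). At that time the subunits were high after 1500 mg/kg alone. Of 5 B cell markers 4 fell after both doses at 24 h, Spib by 0.69 ± 0.16 after 2500 mg/kg. With the vehicle's spread allowed for, 3 B cell markers passed at 1500 mg/kg but 1 at 2500 mg/kg. With the rats of that time alone the counts were 2 and 0. Of 12 red cell markers 7 fell and 2 rose after 2500 mg/kg, led by Bpgm at -1.62 ± 0.13, and 8 fell after 1500 mg/kg. Without the Cy5-treated array of rat 3631 0 of them rose and 9 fell. Of 7 platelet markers 5 fell at the highest dose and 0 after 1500 mg/kg at 24 h, with Gp1bb at -1.02 ± 0.12 and -0.25 ± 0.12, while the subunits overlapped between these doses. At 12 h the order of the doses was the other way round: 5 of the 7 were lower in the 1500 mg/kg rats and 0 in those given 2500 mg/kg (3.36% and 1.29% of all genes). None of 8 markers of NK and cytotoxic cells and none of 6 of eosinophils, basophils and mast cells passed in either direction at 24 h (0 of 8 and 0 of 6). Earlier, 2 NK and cytotoxic markers were lower at 6 h after 1500 mg/kg (9.24% of all genes) and 1 was higher at 6 h after 2500 mg/kg (2.54%). At 12 h 1 was higher after 150 mg/kg (0.963%) and 1 was lower after 2500 mg/kg (1.29%). Of the 6 eosinophil, basophil and mast cell markers, 1 was higher at 6 h after 2500 mg/kg (2.54%). The part of these shifts in the ratios of S100a8 and S100a9 was not tested.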

How the data were processed

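The authors deposited log10 ratios of both dyes for 22075 probes on 68 arrays. The dye of each rat's RNA was read from the labels, and the background correction and normalization are not given in the sources used here. The values lie within -2 and 2, with array medians between -0.0035 and 0, 2.76% exact zeros and 0.493% at the limit, and no count depth exists for arrays, whose number limits the precision.

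Ratios were converted to log2, turned to treated over vehicle by dye, and reduced to the mean of both arrays, so that a rat is 1 replicate. Probes were named by the platform annotation, updated through gene identifiers to GRCr8 symbols (12720 of 12750 probes with 1 gene), and averaged per gene.

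One limma model (version 3.58.1, R 4.3.3) with a mean for each of 9 groups was fitted to all 34 rats and 9653 genes, with 25 residual degrees of freedom. Tests against vehicle leave out the spread of the vehicle RNA, and an alternative widened the standard errors for it. The script was checked on simulated data. Python 3.11.15 with numpy 2.4.6, pandas 2.3.3 and matplotlib 3.10.9 did the rest. Exact permutation tests planned for the subunit difference are not reported, because that difference is made of the ratios that selected the genes. The R package data.table (1.17.8) read the input.

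The members, the gene lists, the motifs and the tests were chosen with earlier results of these data known. Named genes were, per list, up to 4 with the smallest adjusted p in the 2500 mg/kg group at 24 h and those that passed against the list's main direction, plus all measured S100 genes and the 8 highest and 4 lowest correlations with the mean of both members and the 4 highest within groups. Alternatives were each dye orientation alone, arrays scaled to a common spread, the mean dye profile removed, zeros and limits left out, centring on named genes, the rats of a time alone, and each rat left out. Nothing says whether replicate rats differ in batch.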

Additional observations from a re-analysis of the deposited data

Results flagged for a closer look

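In the 2500 mg/kg group at 24 h the S100a9 ratio of rat 3631 was 0.99 and lay far from the other 3 rats, with a gap of 0.892 of the group's range, above the critical value of 0.829 for 4 samples. Its arrays read 4.0 with the treated RNA in Cy3 and -2.02 with it in Cy5. In the 150 mg/kg group at 24 h the difference S100a9 minus S100a8 was 1.23 in rat 3618, far from the other 3 rats, with a gap of 0.920 of the range. That rat read 0.14 for S100a9 and -1.09 for S100a8, and its arrays differed little for S100a8, with -1.05 in Cy5 and -1.13 in Cy3. Such gaps were looked for in 21 sets of 4 values. The same rats recur in these sets for the subunits and for their difference, so the sets are not independent. Chance gives such a gap in about 1 in 20 independent sets. The critical value served as a flag and is no test of the members.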

How the results depend on the processing

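No paired analysis was possible because rat numbers differ between all groups. The alternative with each probe alone was not run, since each member has 1 probe. Of the members' group means, those of 150 mg/kg at 6 h moved by over 1 SD: S100a8 from -0.29 to 0.062 with the treated RNA in Cy5 alone and -0.65 in Cy3 alone, and S100a9 from -0.044 to -0.29 and 0.20. The subunit differences between doses at 24 h ranged from -0.12 to 0.29 and from -0.64 to -0.056 over left-out rats.

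Counts of pathway list genes moved more. With the vehicle's spread allowed for, they fell from 3 to 0 (150 mg/kg), 16 to 7 (1500 mg/kg) and 14 to 6 (2500 mg/kg) at 6 h, from 1 to 0 (150 mg/kg) and 15 to 0 (1500 mg/kg) at 12 h, and from 26 to 14 (1500 mg/kg) and 39 to 19 (2500 mg/kg) at 24 h. With the rats of a time alone they were 12 (150 mg/kg, 6 h), 0 and 7 (150 and 1500 mg/kg, 12 h), and 10 and 13 (1500 and 2500 mg/kg, 24 h). With scaled arrays they were 7, 29 and 23 at 6 h in order of dose, and 8 and 3 at 12 h (150 and 1500 mg/kg). With the dye profile removed the 150 mg/kg count at 12 h was 2. Between doses at 6 h, 1500 against 150 mg/kg gave 1, and 3, 5 and 2 with the time alone, scaled arrays and no dye profile, and 2500 against 150 mg/kg gave 0, and 4 and 5 with the first 2 of these. At 24 h the time alone took 1500 against 150 mg/kg from 12 to 2 and 2500 against 150 mg/kg from 16 to 3, while leaving out the Cy5-treated array of rat 3631, chosen after seeing the data, took the latter to 28.

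Over left-out rats the counts ran from 0 to 1 (150 mg/kg), 9 to 11 (1500 mg/kg) and 9 to 11 (2500 mg/kg) at 6 h, and from 0 to 1, 1 to 10 and 0 to 3 at 12 h. At 12 h 1500 mg/kg gave 5 without rat 4132 and 1 without rat 4133. Between 1500 and 150 mg/kg they ran from 0 to 1 at 6 h, 0 to 2 at 12 h and 10 to 18 at 24 h, and between 2500 and 150 mg/kg from 11 to 24 at 24 h. Cst7 after 2500 mg/kg at 24 h turned from -0.78 to 0.074 with zeros and limits left out and ran from -1.06 to 0.029 over left-out rats, the highest without rat 3630. Of 60 named genes called after 2500 mg/kg at 24 h, 30 did not pass with the time alone, 22 with the vehicle's spread allowed for and 18 without rat 3631. The causes were not tested.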
